A study of Mus musculus with 4 samples.

Results

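Transcripts of the constant regions of mouse immunoglobulin chains were counted cell by cell in the distal jejunum after ischemia/reperfusion (I/R). The 10 genes described are the heavy chain constant genes Ighm, Ighd, Ighg3, Ighg1, Ighg2b, Ighg2c and Igha, the light chain constant genes Igkc and Iglc2, and Jchain, which encodes the joining chain of polymeric antibodies. They were taken by gene symbol, 10 of the 32286 features in the count matrices, and all 10 had unique molecular identifiers (UMIs, each standing for 1 captured transcript) in these libraries. Over all barcodes the UMIs ranged from 55 for Ighg2c to 520934 for Igkc, with 148192 for Igha, 64989 for Jchain and 19565 for Ighm.

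The libraries came from 4 adult male mice, each dissociated and sequenced on its own with 10x Genomics 3′ chemistry 18.5 h after I/R surgery, in which the superior mesenteric artery is clamped and released. The 2 control mice carried the floxed alleles Foxc1fl/fl;Foxc2fl/fl without Cre. The 2 EC-Foxc-DKO mice carried Cdh5-CreERT2;Foxc1fl/fl;Foxc2fl/fl, so that tamoxifen deleted both transcription factor genes in endothelial cells of blood and lymph vessels, where the Cdh5 promoter is active, and not by design in lymphocytes. All 4 mice had I/R and no unoperated mouse was sequenced, so the comparison is between genotypes after injury and not between injured and uninjured tissue. The mice are named below by group and the replicate number of the labels.

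Each B cell assembles 1 heavy chain and 1 light chain gene and at first joins its heavy chain variable exon to Ighm and, by alternative splicing, to Ighd. Class switch recombination cuts out the DNA between the variable exon and a constant gene further along the locus, so that the cell then makes IgG, IgE or IgA in place of IgM and IgD. In the intestine most antibody-secreting plasma cells make IgA, which is linked into dimers by the J chain and carried through the epithelium by the receptor encoded by Pigr.

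The 7 heavy chain genes lie on the minus strand of chromosome 12 in the order in which switching can reach them. In GENCODE vM21 on GRCm38 the first, Ighm, is at chr12:113418558-113422730 and is followed by Ighd at chr12:113406604-113416324, Ighg3 at chr12:113356224-113361232, Ighg1 at chr12:113325240-113330523, Ighg2b at chr12:113302965-113307933, Ighg2c at chr12:113285325-113288932 and Igha at chr12:113254830-113260236. The stretch from Ighm to Igha covers 168 kb. Igkc lies at chr6:70726435-70726966 on the plus strand, Iglc2 at chr16:19198396-19200351 on the minus strand, and Jchain at chr5:88519809-88527891 on the minus strand.

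The heavy chains that the J chain can join differ from the others at the end of the secreted form. IgA and IgM chains carry a cysteine as the last residue but 1, and this cysteine forms the bond to the J chain, whereas the IgG chains have no such tail. The last 60 coding bases of the secreted transcript are shown 5′ to 3′ for 2 genes with the tail and 1 without, from the GENCODE vM21 transcripts, with the cysteine codon in capitals.
Igha: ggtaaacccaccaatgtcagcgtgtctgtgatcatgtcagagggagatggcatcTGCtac
Ighm: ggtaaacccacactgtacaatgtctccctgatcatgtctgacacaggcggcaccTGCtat
Ighg2b: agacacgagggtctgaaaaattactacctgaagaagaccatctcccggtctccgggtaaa

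Some of the constant genes are closely related in sequence. Among the lambda chains the last 60 coding bases of Iglc3 differed from those of Iglc2 at 1 position and those of Iglc1 at 13, which is why they are shown, with the bases that differ from Iglc2 in capitals. Over the whole coding sequence Iglc2 and Iglc3 were 96.5% identical, Ighg2b and Ighg2c 85.9%, and Igha and Ighm 64.4%. Single plasma-like cells had UMIs mostly on either lambda gene. A cell of EC-Foxc-DKO mouse 1 had 2853 Iglc3 and 42 Iglc2 UMIs, and a cell of control mouse 1 had 5 and 149. How well reads were assigned between related genes was not tested.
Iglc2: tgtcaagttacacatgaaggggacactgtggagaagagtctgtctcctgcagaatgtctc
Iglc3: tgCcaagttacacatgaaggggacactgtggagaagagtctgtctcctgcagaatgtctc
Iglc1: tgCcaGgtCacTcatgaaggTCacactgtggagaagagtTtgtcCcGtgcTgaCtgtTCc

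The matrices held 22679 barcodes, of which 5615 passed the limit on mitochondrial transcripts: 1446 and 348 in the controls and 2742 and 1079 in EC-Foxc-DKO mice. Total UMIs ranged from 15557181 to 72046346 per library, and immunoglobulin genes held 0.172% to 0.857% of them. Foxc2 had no UMI in any kept cell. Foxc1 had 3 to 11 UMIs per mouse, and Cre had 0 UMIs in each control and 3 in each EC-Foxc-DKO mouse, which matches the labels but is too few to measure the deletion. The libraries shared 51 barcodes, which 24 kept cells carried, 8 of them of the B lineage.

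B lineage cells were grouped with every immunoglobulin gene and Jchain left out of the clustering, so the isotype of a cell did not decide its type. The groups were 45 plasma-like cells (5 and 8 in the controls, 17 and 15 in EC-Foxc-DKO mice), 101 germinal center B-like cells (9, 4, 67 and 21) and 1380 resting B-like cells (123, 17, 1206 and 34). EC-Foxc-DKO mouse 1 thus held 1290 of the 1526 B lineage cells, and counts of cells pooled over mice mostly describe that mouse where no value per mouse is given. The types were named from lists of markers, so detection of the same markers is a description and no check of the names. All 15 plasma cell markers were detected in the plasma-like cells of each mouse, 14 or 15 of 15 germinal center markers in the germinal center B-like cells, and all 15 resting B cell markers in the resting B-like cells. Detection alone is not specific, since 11 to 13 of the 15 plasma cell markers had a UMI in the Macrophage 2 cluster. The resting B-like cells were 3 clusters of 836, 372 and 172 cells, none of which had a resting marker at 2-fold over the other B lineage cells, and the name was given to the 3 together, with 14 of 15 markers at 2-fold over the other 2 types. The cluster of 372 cells was led by genes such as Egr1, Egr3, Nr4a1 and Myc and that of 172 cells by genes such as Ccnd2 and Il4i1, genes known from activated B cells, so the name is used for the pooled group and not for these clusters. Levels are given as counts per 1000000 UMIs of that cell type in that mouse (CPM). The 3′ chemistry gives 1 UMI per transcript whatever its length, so levels of different genes were set side by side without division by length.

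Plasma-like cells were devoted to immunoglobulin and mostly to IgA. Immunoglobulin genes took 70.2% and 64.6% of all UMIs in the plasma-like cells of control mice 1 and 2, and 55.4% and 41.1% in those of EC-Foxc-DKO mice 1 and 2. The share ranged from 17.6% to 82.0% between single cells, with a median of 57.3%. Of the 101999 heavy chain UMIs in these cells, Igha held 90.1%, Ighg2b 5.36%, Ighg3 3.74% and Ighm 0.807%. The Igha share was 99.9% and 99.8% in the controls and 76.0% and 94.5% in EC-Foxc-DKO mice.

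Igha stood at 157812 CPM and 149369 CPM in the controls and at 81167 CPM and 95971 CPM in EC-Foxc-DKO mice. Its median UMIs per cell were 4753 and 2614.5 in the controls and 1816 and 769 in EC-Foxc-DKO mice. Both control mice were above both EC-Foxc-DKO mice on either measure, a difference that did not pass the test given further below. The medians per cell are not corrected for depth. Median depth in these cells was 24845 and 23197 UMIs in the controls and 18916 and 11617 UMIs in EC-Foxc-DKO mice. Jchain had 69759 CPM and 60809 CPM in the controls and 37942 CPM and 48939 CPM in EC-Foxc-DKO mice, and ordered the 4 mice as Igha did. Every one of the 45 plasma-like cells had Jchain UMIs.

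Igkc, the kappa light chain, was the most abundant transcript of the plasma-like cells in each mouse. It reached 466631 CPM and 427328 CPM in the controls and 391657 CPM and 256132 CPM in EC-Foxc-DKO mice. There were 2.96 and 2.86 Igkc UMIs per Igha UMI in the controls, and 4.83 and 2.67 in EC-Foxc-DKO mice. The lambda chain gene Iglc2 was far lower, at 2166 CPM and 1556 CPM in the controls and 1504 CPM and 1189 CPM in EC-Foxc-DKO mice. No plasma-like cell had more lambda than kappa UMIs (0 of 45, 95% exact binomial interval up to 7.87%), and the median share of Igkc among a cell's light chain UMIs was 99.2%. A single cell of EC-Foxc-DKO mouse 1 held 2853 Iglc3 UMIs.

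The other isotypes came from few cells. Ighg2b, an IgG subclass, had 109 CPM and 225 CPM in the controls and 12655 CPM and 5388 CPM in EC-Foxc-DKO mice, which rested on 15, 38, 4535 and 884 UMIs. Ighg3 reached 10635 CPM in EC-Foxc-DKO mouse 1 and had no UMI in the plasma-like cells of the other 3 mice. Ighm had no UMI in either control and stood at 2294 CPM and 6.10 CPM in EC-Foxc-DKO mice. Ighd at 27.9 CPM was seen in EC-Foxc-DKO mouse 1 alone, Ighg1 at 5.92 CPM in control mouse 2 and 183 CPM in EC-Foxc-DKO mouse 2, and Ighg2c in none.

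Each cell was given an isotype where it had at least 10 heavy chain UMIs and 1 gene held over 50% of them, with Ighm and Ighd together counted as unswitched. All 45 plasma-like cells could be called. IgA was called in 5 of 5 and 8 of 8 cells of the controls and in 12 of 17 and 14 of 15 cells of EC-Foxc-DKO mice, or 39 of 45 in all (86.7%, interval 73.2% to 94.9%). These intervals are exact Clopper-Pearson 95% intervals and cover counting error only. The remaining 6 cells all came from EC-Foxc-DKO mice and were 4 IgG2b cells (3 in mouse 1 and 1 in mouse 2), 1 IgG3 cell and 1 unswitched cell. The controls held only 13 plasma-like cells together, and the part of sampling in the lack of other isotypes there was not tested.

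**Figure D1:**
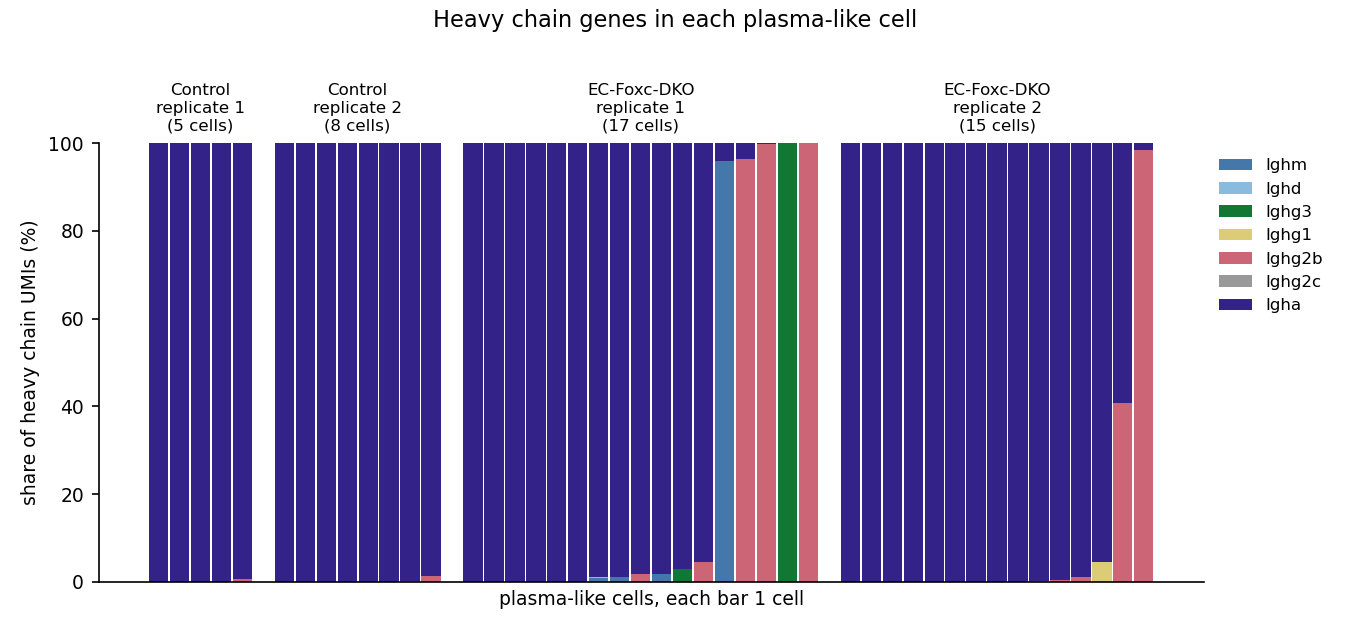
Share of heavy chain UMIs (%, y axis) on each of the 7 heavy chain genes in every plasma-like cell, 1 bar per cell, grouped by mouse. Igha held most of the bar in all 13 control cells and in 12 of 17 and 14 of 15 EC-Foxc-DKO cells, and the remaining bars belong to 4 Ighg2b cells, 1 Ighg3 cell and 1 Ighm cell.

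Within a plasma-like cell 1 heavy chain gene usually held nearly all heavy chain UMIs. Of the 39 IgA cells, 22 had no UMI of any other heavy chain gene, and in 29 Igha held over 99%. Ighg2b was the commonest second gene, with UMIs in 10 of the 39 cells, against 4 cells for Ighm, 3 for Ighd, 2 each for Ighg3 and Ighg1 and 0 for Ighg2c. The largest second share, 40.7%, was in 1 cell of EC-Foxc-DKO mouse 2 with 726 Igha and 499 Ighg2b UMIs. Whether this barcode held more than 1 cell was not tested. The 4 IgG2b cells carried 152, 741 and 3537 Ighg2b UMIs in EC-Foxc-DKO mouse 1 and 361 in mouse 2. The IgG3 cell carried 3755 Ighg3 UMIs, and in the unswitched cell Ighm held 704 of 734 heavy chain UMIs.

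Jchain transcripts were not limited to cells whose heavy chain has the tail. The 39 IgA cells had 43.2 Jchain UMIs per 100 heavy chain UMIs, the 4 IgG2b cells 19.3, the IgG3 cell 10.9 and the unswitched cell 18.3. The IgG2b cell of EC-Foxc-DKO mouse 2 had 48.0, above the IgA cells as a group, and the other cells without IgA were below them. No test was made because cells are not replicates and the 6 came from 2 mice. Ccr10, a chemokine receptor of gut-homing IgA plasma cells, had a UMI in 34 of the 39 IgA cells (87.2%, interval 72.6% to 95.7%) and in 0 of the 6 others. Median depth was 17806 UMIs in the IgA and 9828.5 in the IgG2b cells, with 23897 in the IgG3 and 12079 in the unswitched cell. The part of depth in this difference was not tested, and Ccr10 was among the markers that named the plasma-like type. Mzb1, a chaperone of antibody assembly, was detected in all 45.

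Germinal center B-like cells held a mixture of isotypes at levels far under those of plasma-like cells. Igha had 219 CPM and 614 CPM in the controls and 4485 CPM and 4491 CPM in EC-Foxc-DKO mice. Much of this came from 5 cells in which immunoglobulin made up at least 5% of UMIs, 4 in EC-Foxc-DKO mouse 1 and 1 in mouse 2, of which 3 had 1656, 965 and 797 Igha UMIs. Without these 5 cells, an alternative chosen after seeing the data, Igha was at 219 CPM and 614 CPM in the controls and 494 CPM and 642 CPM in EC-Foxc-DKO mice, and the groups overlapped.

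The same held for Igkc and Jchain. Igkc stood at 3491 CPM and 12691 CPM in the controls and 21816 CPM and 14707 CPM in EC-Foxc-DKO mice, and without the 5 cells at 3491 CPM, 12691 CPM, 7116 CPM and 3846 CPM in the same order. Jchain had 459 CPM and 1066 CPM in the controls and 2012 CPM and 3030 CPM in EC-Foxc-DKO mice, and 459 CPM, 1066 CPM, 567 CPM and 485 CPM without them. Most Igkc and Jchain UMIs of both EC-Foxc-DKO mice lay in those few cells. The 5 cells were picked by their immunoglobulin share, and all came from EC-Foxc-DKO mice. Leaving them out was bound to lower the immunoglobulin level of that group. The values without them, for Igha as well, are therefore a description and no test of the difference. The 15 plasma cell markers summed to 1436 CPM and 2164 CPM in the controls and 2317 CPM and 1966 CPM in EC-Foxc-DKO mice, and their part in these levels was not tested.

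Ighm in germinal center B-like cells was at 1835 CPM in control mouse 1, had no UMI in control mouse 2 and was at 690 CPM and 417 CPM in EC-Foxc-DKO mice. Ighg1, the subclass often made in responses to protein antigens, had 120 CPM and 1711 CPM in the controls and 294 CPM and 98.0 CPM in EC-Foxc-DKO mice. Ighg2b stood at 140 CPM and 96.9 CPM in the controls and 440 CPM and 118 CPM in EC-Foxc-DKO mice. For each of these 3 genes the spread between the 2 control mice was wide or the groups overlapped, and the controls held only 9 and 4 cells. Iglc2 varied little, with 499 CPM, 581 CPM, 395 CPM and 373 CPM. Epithelial markers summed to 7520 CPM in the germinal center B-like cells of EC-Foxc-DKO mouse 2, with all 10 detected, against 64.6 CPM to 1297 CPM with 2 to 10 detected in the other 3 mice, and their part in its values was not tested.

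Of the 101 germinal center B-like cells, 56 had enough heavy chain UMIs for a call, 44 had too few and 1 was mixed. The 56 comprised 19 IgA cells (33.9%), 12 IgG1 cells (21.4%), 7 IgG2b cells (12.5%) and 18 unswitched cells (32.1%). Switched cells were 0 of 2 and 4 of 4 in the controls and 24 of 37 and 10 of 13 in EC-Foxc-DKO mice, 38 of 56 in all (67.9%, interval 54.0% to 79.7%). IgA was found in 3 of the 4 mice, as 1 cell of control mouse 2 and 11 and 7 cells of EC-Foxc-DKO mice. IgG1 was likewise found in 3 cells of control mouse 2 and in 7 and 2 cells of EC-Foxc-DKO mice. Among kept cells, 1 resting B-like cell besides these 12 was IgG1, and no plasma-like cell was. Most Ighg1 UMIs lay in barcodes that were not kept.

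Over all mice, a larger share of switched than of unswitched germinal center B-like cells had Jchain transcripts, at median depths of 9994.5 and 10366.5 UMIs. Jchain had a UMI in 36 of 38 switched cells (94.7%) and 10 of 18 unswitched cells (55.6%). In EC-Foxc-DKO mouse 1, which held most of them, the counts were 24 of 24 and 7 of 13, and in mouse 2 they were 8 of 10 and 2 of 3, with a median of 6 Jchain UMIs in both classes of mouse 2. Each control held called cells of 1 class only, so the larger share rests mostly on mouse 1. Thinned to 1000 UMIs per cell, the shares were 59.8% and 28.1%. These shares describe cells of 3 mice in either class and were not tested, since cells of 1 mouse are not replicates.

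**Figure D2:**
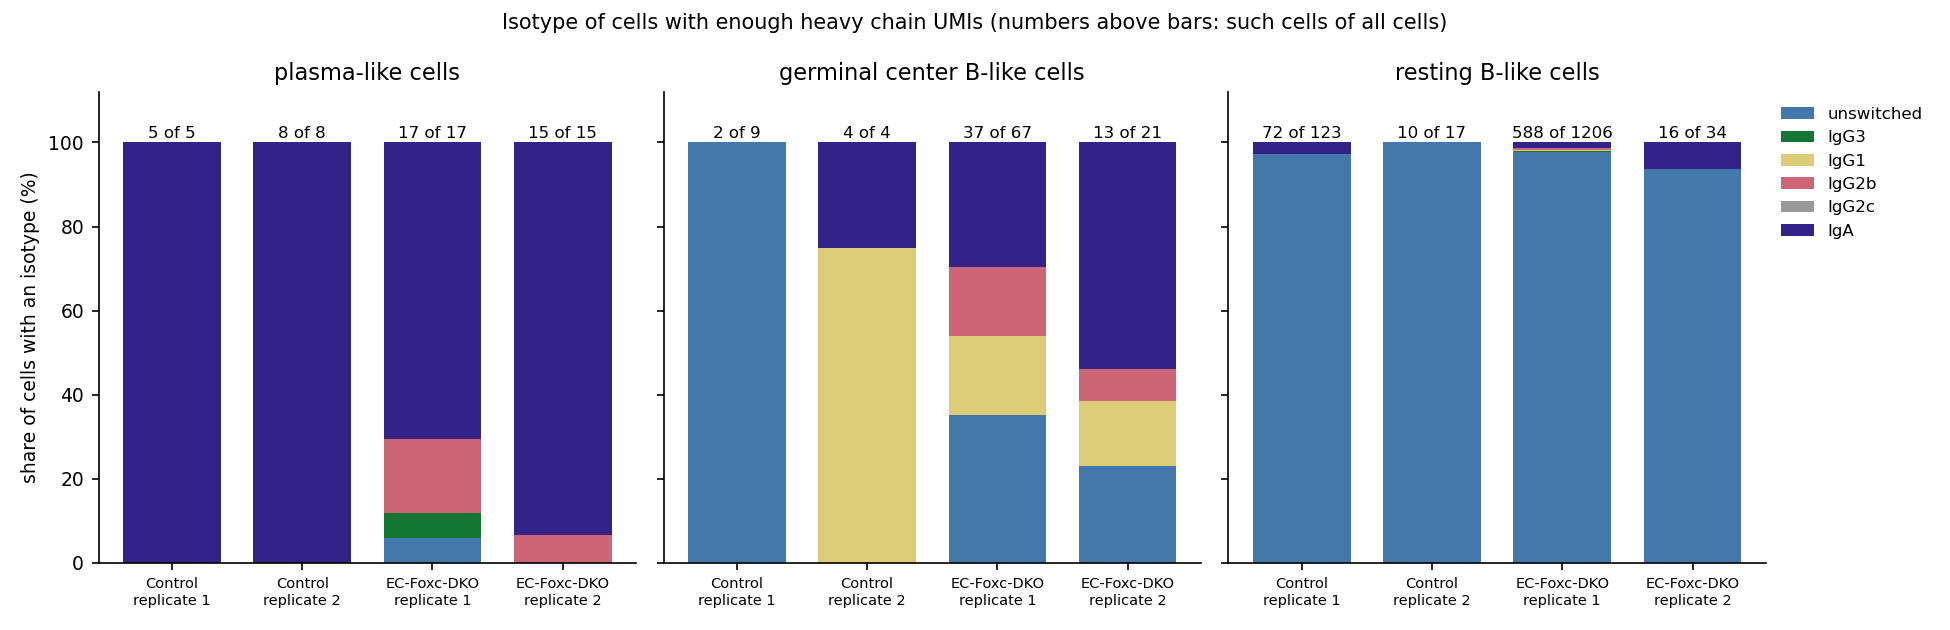
Share of called cells (%, y axis) of each isotype for each mouse (x axis) in plasma-like, germinal center B-like and resting B-like cells, with the number of called cells among all cells above each bar. IgA led in the plasma-like cells of all 4 mice, unswitched cells in the resting type, and the germinal center type held 2 to 4 isotypes in the 3 mice with at least 4 called cells.

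Resting B-like cells transcribed Ighm and Ighd together, as naive B cells do. Ighm stood at 2548 CPM and 2095 CPM in the controls and 1916 CPM and 1902 CPM in EC-Foxc-DKO mice. Ighd had 949 CPM and 945 CPM in the controls and 771 CPM and 717 CPM in EC-Foxc-DKO mice. Both controls were above both EC-Foxc-DKO mice for either gene, by a margin that was within its error in the test given further below. Ighm and Ighd UMIs were found in the same cell in 1187 of 1380 cells (86.0%), with 90.2% and 82.4% in the controls and 86.1% and 70.6% in EC-Foxc-DKO mice, the last at the lowest median depth of 2753.5 UMIs.

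The balance between both transcripts was nearly the same in each mouse. Among cells with at least 10 Ighm and Ighd UMIs, the median share of Ighd was 24.9% and 27.8% in the controls and 28.6% and 27.3% in EC-Foxc-DKO mice. Ighd held over 50% in 48 of 640 such cells. Ighm was thus the more abundant of the pair in most resting cells. Over all mice the 3 clusters of 836, 372 and 172 cells had 2062 CPM, 2241 CPM and 1239 CPM of Ighm and 803 CPM, 875 CPM and 591 CPM of Ighd, and 382 of 389, 219 of 226 and 69 of 71 called cells were unswitched.

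Igkc in resting B-like cells was at 7147 CPM and 7246 CPM in the controls and 7453 CPM and 3698 CPM in EC-Foxc-DKO mice. Iglc2 was at 880 CPM and 1292 CPM in the controls and 1123 CPM and 554 CPM in EC-Foxc-DKO mice. EC-Foxc-DKO mouse 2, with 34 cells, was the lowest for both light chains, and mouse 1 lay near the controls. Igha was at 107 CPM and 15.8 CPM in the controls and 58.4 CPM and 306 CPM in EC-Foxc-DKO mice, with a UMI in 11, 1, 131 and 3 cells. Jchain was at 19.1 CPM and 0 CPM in the controls and 25.6 CPM and 9.56 CPM in EC-Foxc-DKO mice. Both genes were thus at a small part of their level in plasma-like cells.

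Of the 686 resting B-like cells that could be called, 670 were unswitched (97.7%) and 16 had switched. The switched cells were 11 IgA, 3 IgG2b, 1 IgG1 and 1 IgG3, with 2 in control mouse 1, none in control mouse 2, 13 in EC-Foxc-DKO mouse 1 and 1 in mouse 2. Jchain had a UMI in 6 of the 16 switched cells (37.5%) and in 54 of the 670 unswitched cells (8.06%), at median depths of 6569.5 and 3529.5 UMIs, and in 10.6% and 2.44% of cells after thinning to 1000 UMIs. Lambda UMIs outnumbered Igkc UMIs in 51 of 1347 resting B-like cells (3.79%, interval 2.83% to 4.95%) and in 5 of 81 germinal center B-like cells (6.17%). In 1255 of the 1347 resting cells Igkc held 5% to 95% of light chain UMIs, with a median of 80.6%, whereas 1 light chain type per cell is the rule for the protein in B cells. Iglc2 UMIs were in 1204 of all 1380 resting cells and Iglc3 UMIs in 1151. The Iglc2 level of these cells was 554 CPM to 1292 CPM, against 0.708 CPM to 15.7 CPM pooled over cells outside the B lineage of the same mice. By type over all mice, Iglc2 was at 178 CPM in the cluster named erythroid cells and 115 CPM in CD4+ T cells. The limits of the erythroid name are given further below. The part of background in the mixed light chain counts was not tested. Between the types, the median Igkc share was 99.2% in plasma-like, 79.6% in germinal center B-like and 80.6% in resting B-like cells.

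**Figure D3:**
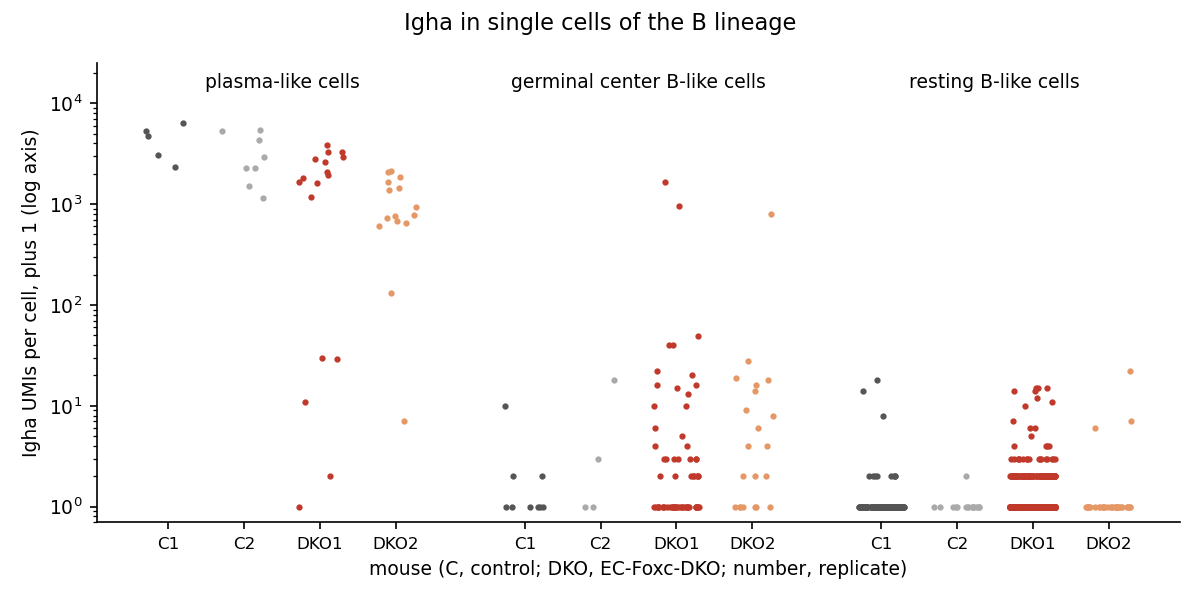
Igha UMIs plus 1 per cell (log y axis) in every plasma-like, germinal center B-like and resting B-like cell, by mouse (x axis). IgA plasma-like cells had 131 Igha UMIs or more, whereas most cells of the other types had 0 to 1. The highest germinal center B-like cells had 797, 965 and 1656, and the next had 48. Of the resting B-like cells, 39 had 2 or more, with 21 at most.

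Genotypes were compared on UMIs summed per mouse and cell type with edgeR, and fold changes are EC-Foxc-DKO over control on the log2 scale. The error after ± is the size of the fold change divided by the square root of edgeR's F statistic. It is an approximate standard error. In resting B-like cells 5 of the 10 genes passed the filter on low counts, namely Ighm, Ighd, Igkc, Iglc2 and Igha. None was called at a Benjamini-Hochberg adjusted p under 0.05, and 0% of all 3417 genes tested were called (77 at an unadjusted p under 0.05 with edgeR, and 0 called and 20 so with DESeq2). Ighm changed by -0.22 ± 0.25, Ighd by -0.27 ± 0.27, Igkc by -0.28 ± 0.27 and Iglc2 by -0.20 ± 0.31, with an adjusted p of 0.9999 for each in edgeR's quasi-likelihood test. Igha was on the other side, at 0.62 ± 0.54 with the same adjusted p. Each difference was about the size of its error. The median of the 5 was -0.22 against -0.02 over all genes tested.

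In plasma-like and germinal center B-like cells both control mice held under 10 cells, below the minimum set for a test, and the per mouse values above are the result. A fit without that minimum was added after seeing the data. In plasma-like cells it called 1 of the 5 genes that passed the filter, Ighg2b, which was higher in EC-Foxc-DKO mice by 5.15 ± 0.58 (edgeR with Benjamini-Hochberg adjustment, adjusted p = 0.00815, both mice of 1 genotype above both of the other), where 0.184% of all 1087 genes tested were called. The difference kept its sign with any mouse left out, at 4.92 without control mouse 1 (edgeR, adjusted p = 0.000595), 5.51 without control mouse 2, 4.10 without EC-Foxc-DKO mouse 1 and 5.80 without EC-Foxc-DKO mouse 2, but the adjusted p in the last 3 of these edgeR fits was 0.0611, 0.213 and 0.0557, so the call was lost. The 4 IgG2b cells and the cell with mixed counts held most of the Ighg2b UMIs. The other gene called was a kappa variable gene, Igkv17-127, named after its values were seen, at 8.11 ± 1.05 (edgeR, adjusted p = 0.0241).

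The genes of IgA itself did not pass in that fit. Igha differed by -1.54 ± 0.68 (adjusted p = 0.445), Jchain by -1.35 ± 0.55 (adjusted p = 0.404) and Igkc by -1.17 ± 0.97 (adjusted p = 0.683) in edgeR. They kept the negative sign when library sizes were taken over all genes but the immunoglobulin genes, with Igha at -1.46. Markers of B cells in general, which plasma cells lose, summed to 898 CPM and 586 CPM in the plasma-like cells of the controls (5 of 10 detected in each) and to 1552 CPM and 1036 CPM in those of EC-Foxc-DKO mice (10 and 6 of 10), and their part in these differences was not tested.

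In germinal center B-like cells the added fit called none of 7 genes of the 10, and 0% of 1934 genes tested (110 at an unadjusted p under 0.05 in edgeR, and 1 called by DESeq2). Igha was higher in EC-Foxc-DKO mice by 3.56 ± 0.43 with an adjusted p of 0.175 in edgeR, and passed under several alternatives given in the closing section. Jchain differed by 1.83 ± 0.44 (adjusted p = 0.715), Igkc by 1.25 ± 0.52 (adjusted p = 0.791) and Ighm by -0.75 ± 1.17 (adjusted p = 0.948) in edgeR. The positive values for Igha, Igkc and Jchain include the 5 cells rich in immunoglobulin named above. An exact permutation test of any single value between 2 and 2 mice cannot give a p under 0.333.

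**Figure D4:**
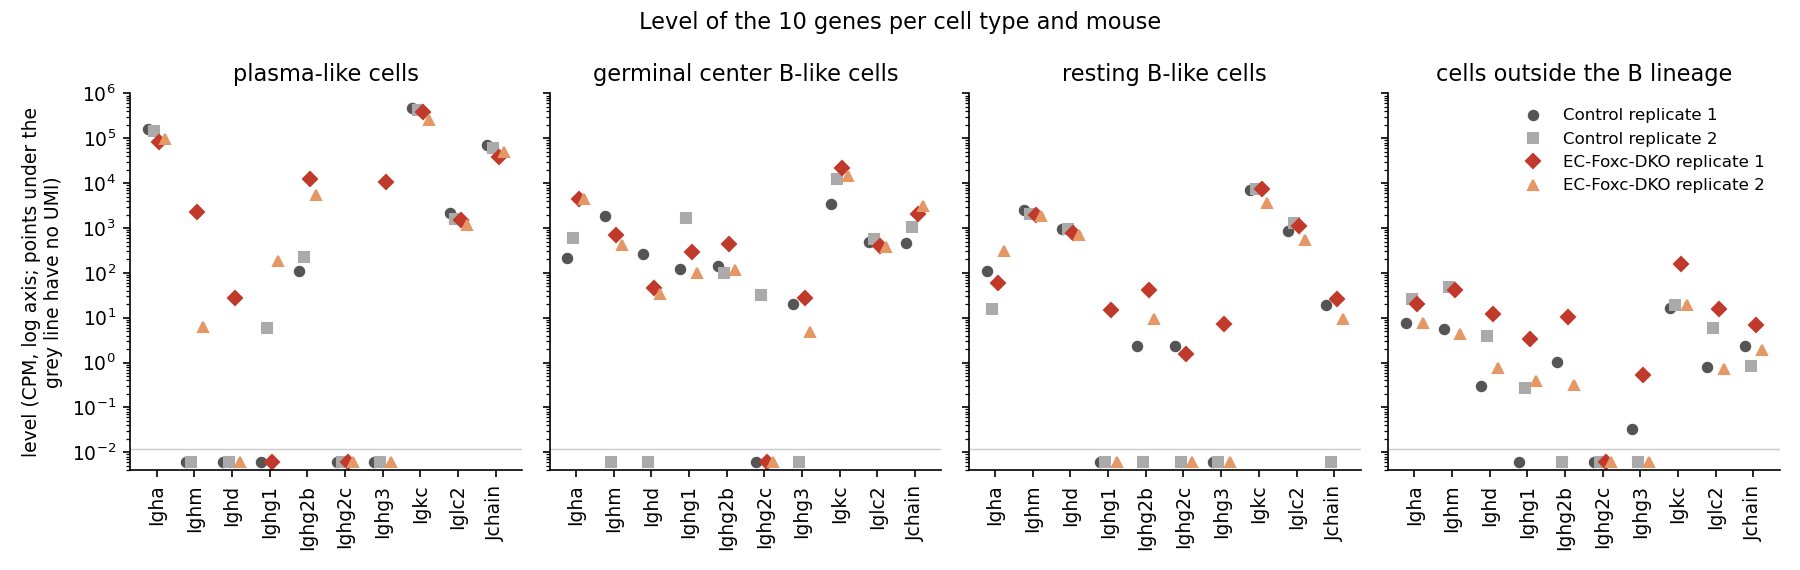
Level (CPM, log y axis) of the 10 genes (x axis) in each mouse, for plasma-like, germinal center B-like, resting B-like and all other cells, with points under the grey line for genes without a UMI. The controls and EC-Foxc-DKO mice lay close together for Ighm and Ighd in resting B-like cells, and Ighg2b in plasma-like cells was 225 CPM or less in controls and 5388 CPM or more in EC-Foxc-DKO mice.

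Other genes of antibody production were taken from fixed lists, and none of them was called in any of the 3 types in edgeR. Of 15 class switch enzymes 2, 0 and 2 were tested in resting, plasma-like and germinal center B-like cells, of 15 genes of signals for switching 11, 1 and 4, and of 10 partners of the B cell receptor 10, 4 and 9. Of 15 antibody secretion factors 8, 15 and 6 were tested, of 10 antibody receptors and transporters 4, 0 and 1, of 14 homing and survival genes 6, 4 and 3, and of 5 other immunoglobulin constant genes 2 in each type. In plasma-like cells the transcription factor gene Xbp1, needed for the secretory state, differed by -1.32 ± 0.46 (edgeR, adjusted p = 0.331), Tnfrsf17, a survival receptor of plasma cells, by -0.96 ± 0.38 (adjusted p = 0.395) and Mzb1 by -0.36 ± 0.30 (adjusted p = 0.689). Others of the list lay on the positive side, such as Irf4 at 1.11 ± 0.56 and Creld2 at 0.48 ± 0.29, named after their values were seen. The homing receptor genes Ccr10 and Ccr9 differed by -0.67 ± 0.47 and -0.47 ± 0.47, and Cd79a, the signal chain of the B cell receptor, by -0.15 ± 0.43. The median over the 15 secretion factors was -0.22 in that type, against -0.01 over all genes tested. In germinal center B-like cells Cd79a differed by -0.55 ± 0.34 and Mzb1 by -0.01 ± 0.45, while the median over the 6 secretion factors tested was 0.56 against 0.06 over all genes, with Hsp90b1 at 2.11 ± 0.46 (edgeR, adjusted p = 0.715) and Pdia4 at 1.99 ± 0.89, named after their values were seen. In resting B-like cells Mzb1 differed by 0.29 ± 0.32, Xbp1 by -0.01 ± 0.53 and Cd79a by -0.09 ± 0.25.

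Pigr, the receptor that takes IgA across the epithelium, was at 1443 CPM and 1398 CPM in the epithelial cells of the controls and 1039 CPM and 471 CPM in those of EC-Foxc-DKO mice. The kinds of epithelial cell differed between mice, with 346 bottom and 5 middle enterocytes in EC-Foxc-DKO mouse 2 against 182 and 311 in control mouse 1, and the part of this in the level of Pigr was not tested. In resting B-like cells, which do not carry out this transport, Pigr was still detected and differed by -0.97 ± 0.45 (edgeR, adjusted p = 0.9999).

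Outside the B lineage 4089 cells were kept, and 9 of them had at least 5% of their UMIs on immunoglobulin genes. These 9 were 5 cells of the CD4+ T cell cluster and 1 each among CD8+ T cells, erythroid cells, crypt cells and macrophages. Together they held 15620 Igha UMIs, 13.9% of those in all kept cells, with 906 to 4718 in each of the 5 CD4+ T cluster cells. These 5 cells had 36.1% to 70.1% of their UMIs on immunoglobulin genes, within the range of the plasma-like cells. Whether they were plasma cells or barcodes with more than 1 cell was not tested. All 9 cells were counted apart and are not in the isotype shares of plasma-like cells. The levels outside the B lineage that follow leave them out.

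Pooled over all other cells of a mouse, the background was low but not 0. Igha was at 7.80 CPM and 25.9 CPM in the controls and 20.2 CPM and 7.57 CPM in EC-Foxc-DKO mice. Igkc was at 16.9 CPM and 19.0 CPM in the controls and 160 CPM and 19.2 CPM in EC-Foxc-DKO mice, highest where B lineage cells were most numerous. Igha and Ighm were instead highest in control mouse 2, which held the fewest B lineage cells. Ighm had 5.62 CPM, 47.7 CPM, 41.8 CPM and 4.38 CPM, Ighd 0.301 CPM, 3.86 CPM, 11.9 CPM and 0.752 CPM, and Jchain 2.34 CPM, 0.827 CPM, 6.98 CPM and 1.95 CPM in the same order of mice. Against these levels the Igha of plasma-like cells was over 3 orders of magnitude higher in each mouse. With CD8+ T cells, described further below, left out as well (chosen after seeing the data), Igha outside the B lineage was at 5.85 CPM and 4.58 CPM in the controls and 12.8 CPM and 7.24 CPM in EC-Foxc-DKO mice. The 15.8 CPM of resting B-like cells in control mouse 2 was 1 UMI. The pooled values weigh epithelial cells most, which held 17975716 of the 22914733 UMIs in EC-Foxc-DKO mouse 1. In that mouse Igkc was at 55.7 CPM in epithelial, 613 CPM in T and 1438 CPM in erythroid cells. The erythroid name was not stable. This cluster of 229 cells had 4 erythroid markers at 2-fold, and its leading genes included Lyz2, C1qa and C1qb, markers of the macrophage lists. At a clustering resolution of 1.0 only 106 cells carried the name, and 123 cells were named Macrophage 3. Erythroid cells had 315 CPM and 679 CPM of Igkc in the controls and 27.1 CPM in EC-Foxc-DKO mouse 2. Igha in erythroid cells of EC-Foxc-DKO mouse 1 was at 66.0 CPM, above its level in the resting B-like cells of that mouse.

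As a share of cells, Igha had a UMI in 14.1% and 16.0% of the other cells of the controls and in 22.1% and 14.3% of those of EC-Foxc-DKO mice, at median depths of 17561, 6515.5, 7983 and 20760 UMIs. Among resting B-like cells, at median depths of 2753.5 to 3321 UMIs, it was 146 of 1380 cells. A cell with 1 Igha UMI was therefore not counted as an IgA cell. The rule of at least 10 heavy chain UMIs was used for that reason. It does not set every call apart from background. With the immunoglobulin-rich cells left out, single cells outside the B lineage of EC-Foxc-DKO mouse 1 had up to 9 Igha, 25 Ighm and 28 Ighg2b UMIs. The part of background in calls made on few UMIs was not tested.

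Most Igha, Igkc and Jchain transcripts of kept cells lay in the 45 plasma-like cells. These held 81.6% of Igha, 75.1% of Igkc, 80.1% of Jchain, 87.1% of Ighg2b and 98.3% of Ighg3 UMIs. Resting B-like cells held 76.4% of Ighm, 91.5% of Ighd and 71.0% of Iglc2 UMIs, and germinal center B-like cells 59.4% of Ighg1. Among kept cells the 10 genes thus divided between the 3 types, with Ighg2c at 9 UMIs. Kept cells held only 453 of the 1886 Ighg1 UMIs of all barcodes, against 112616 of 148192 for Igha. Most Ighg1 UMIs thus lay in barcodes that were not kept, and the cells they came from were not typed.

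CD8+ T cells stood apart from the rest of the background in their ratio of Igha to Igkc. The name is that of the marker list, and the leading genes of this cluster included the gamma delta T cell receptor genes Trdc, Tcrg-C1, Tcrg-C2 and Trgv2. The CD8+ T cells had 188 CPM and 224 CPM of Igha in the controls and 179 CPM and 38.0 CPM in EC-Foxc-DKO mice, which were 60, 79, 181 and 9 UMIs. Igkc gave 11, 5, 173 and 4 UMIs in the same cells. There were thus 545 and 1580 Igha UMIs per 100 Igkc UMIs in the controls and 105 and 225 in EC-Foxc-DKO mice, against 28.8 in plasma-like cells and 37.2, 23.1 and 16.6 in bottom, middle and top enterocytes over all mice. In each mouse the ratio of CD8+ T cells was above that of its plasma-like cells, which was 33.8 and 35.0 in the controls and 20.7 and 37.5 in EC-Foxc-DKO mice. The source of the Igha UMIs of CD8+ T cells was not tested. A ratio above that of plasma-like cells was not limited to them. Bottom enterocytes had 36 Igha and 78 Igkc UMIs in control mouse 1, and 37 and 174, and 69 and 127, in EC-Foxc-DKO mice. These ratios were also above, by less, while control mouse 2 with 1 and 5 was below.

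The Igha of CD8+ T cells was spread thinly over many cells. It had a UMI in 31 of 65 and 38 of 61 cells of the controls and in 104 of 212 and 8 of 68 cells of EC-Foxc-DKO mice, at median depths of 4487, 5248, 4525 and 3261.5 UMIs. No Igkc UMI was present in 29, 34, 59 and 8 of those cells. T cell markers summed to 7995 CPM to 10163 CPM in these cells, with 9 or 10 of 10 detected, and markers of B cells in general to 25.3 CPM to 137 CPM, with 1 to 10 of 10 detected. Which form of the transcript the Igha UMIs came from cannot be read from the counts.

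**Figure D5:**
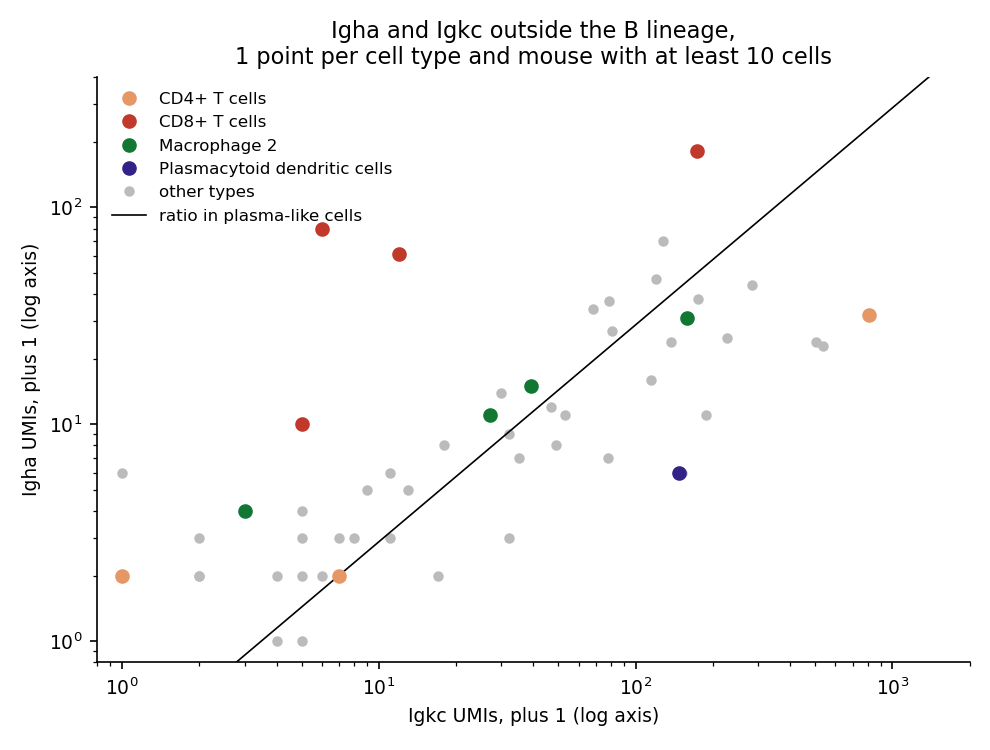
Igha UMIs plus 1 (log y axis) against Igkc UMIs plus 1 (log x axis) for each cell type and mouse outside the B lineage with at least 10 cells, with a line at the ratio of the plasma-like cells. The points of CD8+ T cells lay above the line in all 4 mice, while those of CD4+ T cells and plasmacytoid dendritic cells with over 100 Igkc UMIs lay below it. Some points of other types also lay above it, such as bottom enterocytes of control mouse 1 with 36 Igha and 78 Igkc UMIs.

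Ighm UMIs in cells without an Igkc UMI were seen in several types. Of the 149 CD8+ T cells with an Ighm UMI, 104 had none of Igkc (19 of 25 and 22 of 23 in the controls, 47 of 85 and 16 of 16 in EC-Foxc-DKO mice), and of 71 such CD4+ T cells 31. Plasmacytoid dendritic cells had Ighm UMIs in 29 of 32 cells, 12 of them without an Igkc UMI, at 720 CPM of Ighm and 634 CPM of Igkc. Iglc3 had UMIs in 17 of the 32 cells and Jchain 1 UMI in all. Markers of B cells in general summed to 507 CPM and 1304 CPM in these cells of the controls and 1665 CPM and 239 CPM in those of EC-Foxc-DKO mice, with 3 to 10 of 10 detected, and their part in the Ighm level was not tested. In the Macrophage 2 cluster of control mouse 2, Ighm had a UMI in 30 of 36 cells, 28 of them without an Igkc UMI, with 88 Ighm and 2 Igkc UMIs in all. This cluster name was not stable, since only 6 cells of control mouse 2 carried it at a clustering resolution of 1.0. Over the macrophage and plasmacytoid dendritic cell clusters together, Ighm had a UMI in 19.3% and 84.2% of cells in the controls. In EC-Foxc-DKO mice it was 32.1% and 8.41%.

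Across 63 sums of a cell type in a mouse (21 cell types, at least 10 cells each), the genes that are no immunoglobulin gene with the highest Pearson correlation of log2(CPM + 1) with each isotype were ranked among 13820 genes, as a description. For Igha they were Cd28 (0.863), Tnfrsf17 (0.831), Lax1 (0.806), Mzb1 (0.791) and Eaf2 (0.785). With the 9 immunoglobulin-rich cells outside the B lineage left out, they were Ccr10 (0.802), Nuggc (0.770), Eaf2 (0.768), Tnfrsf17 (0.765) and Mzb1 (0.752), so that Cd28, a T cell gene that plasma cells also use, left the list. For Ighm they were Cd79b (0.900), Cd37 (0.891), Pou2f2 (0.888), Hvcn1 (0.873) and Map4k1 (0.862). For Ighd they were Fcmr (0.926), H2-Eb2 (0.893), Bank1 (0.882), H2-Oa (0.874) and Pax5 (0.872). The sums share libraries, and the correlations reflect which cell types express both genes.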

How the data were processed

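The deposited matrices held whole UMI counts per feature and barcode, which the authors made with Cell Ranger 4.0.0 (per the file headers and the submitters' processing notes; the study's methods name another version) against mm10 with Cre added, with no normalization. A deposited table of the same UMI counts joined over the 4 libraries, with 18407 genes and columns named by barcode alone, gave its gene list only, because it held 1 of the 10 genes, Jchain. Barcodes with under 10% of UMIs on 13 mitochondrial genes, counted over the joined genes, were kept. This count leaves most immunoglobulin genes out of the total, which raises the mitochondrial share of plasma cells.

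Cells were log-normalized to 10000 UMIs and clustered without immunoglobulin genes in scanpy 1.11.5 with leidenalg 0.10.2 (15 components, 15 neighbors, resolution 0.5, seed 0, Python 3.11.15). Clusters were named from fixed markers at 2-fold or more, the resting B-like type only after its 3 clusters were pooled, and doublets were not removed, except in an alternative that dropped the 292 cells (5.20%) with the highest Scrublet scores. UMIs were summed per mouse and type and tested with edgeR 4.0.16 (quasi-likelihood, TMM, R 4.3.3), with DESeq2 1.42.0 as an alternative. On simulated resting B-like counts edgeR recovered 23 of 100 genes changed 2-fold and 88 of 100 changed 4-fold, with 3 false calls among 3121. The simulation gave every gene the same assumed dispersion, not estimated from these mice, and changed only genes above a floor of expected counts. It therefore does not measure the power of the real comparison. Shares have exact Clopper-Pearson 95% intervals (SciPy 1.17.1), which cover counting error only. Sequences came from the GENCODE vM21 transcripts with Biopython 1.88.

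Per mouse values are printed for all 10 genes, and genotype statistics for Igha, Jchain, Igkc and Ighm in plasma-like and germinal center B-like cells, for Ighm, Ighd, Igkc and Iglc2 in resting B-like cells, for example genes of the lists, of which 1 is not reported here, and for every gene called. The 10 genes, the lists and the rules were chosen with earlier results of these data known. The same-numbered mice of both groups did not deviate together (correlation 0.00569 in resting, 0.0461 in plasma-like and -0.0508 in germinal center B-like cells) and were not treated as pairs.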

Additional observations from a re-analysis of the deposited data

Results flagged for a closer look

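In EC-Foxc-DKO mouse 2, 18 barcodes with at least 20% of their UMIs on immunoglobulin genes lay over the mitochondrial limit and entered no comparison, against 1 and 4 such barcodes in the controls and 6 in EC-Foxc-DKO mouse 1. They were noted because they hold the described transcripts in data that the comparisons leave out. Of the 18, 12 were under the limit when the mitochondrial share was taken over all features, and 15 were IgA. With every barcode of at least 20% immunoglobulin counted, whatever its mitochondrial share, IgA was called in 6 of 6, 13 of 13, 17 of 27 and 30 of 34 barcodes of control mice 1 and 2 and EC-Foxc-DKO mice 1 and 2, 66 of 80 in all (82.5%).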

How the results depend on the processing

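The IgA share of plasma-like cells ranged from 68.4% to 100% and the switched share of germinal center B-like cells from 0% to 100%. The median Ighd share ranged from 23.8% to 31.3%. All 28, 28 and 20 recalculations per mouse stayed within the counting interval or spread of the main value. With few cells these intervals were wide, such as 0% to 84.2% for the switched share of control mouse 1, so this is a weak check. Igha and Igkc outside the B lineage stayed within their intervals in 37 of 56 recalculations. They ranged from 4.58 CPM without CD8+ T cells to 3363 CPM, the highest with the 9 immunoglobulin-rich cells kept, which moved 6 of 8 values. Of 156 recomputed fold changes of the 10 genes 130 kept their side of the threshold and their sign. Of the others, 8 turned sign, 3 lost a call of the main fit and 15 passed where the main fit had not called the gene. Only some of these 15 are named below.

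Counts of genes called moved from 0 in resting B-like cells to 5 with no filter on low genes, 2 with the replicate block, and 0 to 18 when single mice were left out (18 without EC-Foxc-DKO mouse 1, 4 without control mouse 2, 4 without EC-Foxc-DKO mouse 2). In plasma-like cells they moved from 2 to 1 with immunoglobulin genes kept in the clustering, 5 with library sizes over other genes, 1 at a mitochondrial limit of 20%, 4 with the mitochondrial share over all features, 59 with no filter, 21 with the replicate block and 0 to 15 without single mice (15 without control mouse 1, 4 without control mouse 2, 0 without either EC-Foxc-DKO mouse). In germinal center B-like cells they moved from 0 to 1 with DESeq2, 1 with immunoglobulin genes kept, 1 at the 20% limit, 22 with no filter, 1 with the replicate block and 0 to 21 without single mice (21 without EC-Foxc-DKO mouse 1, 7 without EC-Foxc-DKO mouse 2, 1 without control mouse 2). The cause of these moves was not tested.

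In germinal center B-like cells Igha passed at an adjusted p of 4.37e-08 in DESeq2, and in edgeR at 0.0477 with immunoglobulin genes kept, 0.00534 at the 20% limit, 1.24e-12 with no filter and 0.0131 with the replicate block. In plasma-like cells with no filter, Igha was at -1.21 (edgeR, adjusted p = 5.90e-05). Signs turned in resting B-like cells at the 20% limit for Ighm (0.050), Igkc (0.032) and Iglc2 (0.14). With single mice left out, Igkc there ranged from -0.99 without EC-Foxc-DKO mouse 1 to 0.26 without EC-Foxc-DKO mouse 2, and Iglc2 from -0.96 to 0.31 without the same mice, with 0.14 without control mouse 2. In germinal center B-like cells Ighm turned with the replicate block (0.32) and ranged from -1.60 without control mouse 2 to 10.36 without control mouse 1, a value that depends on the prior count because the remaining control has no Ighm UMI. The block joined mice that share only a number.

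With 5 and 8 plasma-like and 9 and 4 germinal center B-like cells in the controls, rare isotypes could not be compared between genotypes at this depth.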
